A study of Mus musculus with 6 samples.

Results

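The genes described here are the well-measured protein-coding genes whose normalized counts were at least 1.4 times higher in HL-1 cells treated with LNA Malat1 than in cells treated with LNA Control. They were selected on the measured values themselves. A gene is a member if its mean over the 6 libraries was at least 100, its annotated span was under 300000 bases, and the mean of the LNA Malat1 libraries divided by the mean of the LNA Control libraries, called the ratio below, was at least 1.4. Ttn, Actn2, Ankrd1, Mybpc3, Cenpf, Scd1, and genes named Slc, Zfp, Kif, Arhg, Dock, Col, Kdm, Kcn, Pde, Hist, Rpl, or Rps were left out of the selection. Of the 21269 genes of the table, 14262 were coding, 7969 of these met the limits of level, span, and name, and 184 of the 7969 were members. The mirrored selection, a ratio of at most 1/1.4 within the same limits, held 348 genes. Because the ratio that chose the members compares the same libraries, the higher level of the members is a description and was not tested.

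The model is a single line, HL-1, whose cells descend from atrial cardiomyocytes of the mouse. They were seeded 24 hours ahead of transfection and received 50 nM of a locked nucleic acid (LNA) gapmer, a short DNA oligonucleotide with modified flanks that binds its RNA target and recruits RNase H, the enzyme that cleaves it. The cells received either a control gapmer (LNA Control, 3 libraries) or a gapmer against Malat1 (LNA Malat1, 3 libraries), and RNA was collected 48 hours later. Apart from the gapmer, the labels give both groups the same cells and handling, and they do not say whether the libraries of a group came from separate cultures.

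Malat1 is an abundant long noncoding RNA that is retained in the nucleus, where it is found at nuclear speckles, the domains in which many splicing factors gather. It encodes no protein. The coding genes described here have no single function, so they are ordered by what their proteins do, from growth factor receptors and ligands through structural proteins to enzymes.

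The targeted RNA gave 5051, 5197, and 4369 normalized counts with LNA Control but 2833, 2792, and 2732 with LNA Malat1, 57.2% of the control mean, with no overlap (log2 fold change -0.80, SE 0.07). Per the recovered scaling factors, the libraries held between 4512253 and 5592464 reads on genes. At a normalized count of 100, the lowest mean of the selection, a library held between 92.1 and 116 reads, for which counting error alone gives an SD of 9.29% to 10.4%. Over genes with at least 20 reads in a pair of libraries, LNA Malat1 replicates 1 and 3 differed by less than the sampling noise (chi-square per gene 0.95), but over genes with at least 1600 reads they differed by more (1.10). The pairs of LNA Control gave between 1.77 and 4.18 at the lower minimum. With LNA Malat1 replicates 1 and 3 counted as 1 sample, 177 genes met the ratio, and 173 of them were members. Of the 9 atrial cardiomyocyte markers examined, Nppa and Sln were not in the table and Myh6 and Gja5 were near 0 in all 6 libraries (at most 7 and 4), while Tnnt2, a troponin of the thin filament, was between 647 and 746 and Actc1, cardiac actin, between 409 and 475. Myl7 and Myl4, the atrial myosin light chains, stayed between 18 and 49. Of the 7 fibroblast markers, Col1a1 and Col3a1 were high (1794 to 2650) and Col1a2 was at most 1. The summed markers of macrophages, endothelial cells, and fibroblasts did not overlap between the groups. Every LNA Malat1 library exceeded every LNA Control library in 15.4% of the 7969 coding genes within the limits. Taken singly, each endothelial marker in the table overlapped between the groups. The summed atrial cardiomyocyte markers did not overlap either (1342 to 1376 normalized counts per library in LNA Control, 1389 to 1457 in LNA Malat1). Most of this sum came from Tnnt2, Actc1, and Tnni3, another troponin. Their LNA Malat1 means were 1.11, 0.998, and 0.92 times their LNA Control means, and only Tnnt2 of these had groups without overlap. The smooth muscle and pericyte markers overlapped (1520 to 1687 and 1586 to 1724). None of the macrophage or endothelial markers had a mean of at least 100. The 2 macrophage markers in the table summed to 32 to 36 normalized counts per library in LNA Control and 54 to 81 in LNA Malat1, the 3 endothelial markers to 22 to 31 and 36 to 37, and the 4 fibroblast markers, which were lower, to 4329 to 5079 and 3845 to 4017. The part of these cell types in the results was not tested.

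The selection described the members as follows. Their median ratio was 1.54, against 0.97 for all 7969 coding genes within the limits. The ratio lay between 1.4 and 1.5 in 72 members, between 1.5 and 2 in 98, between 2 and 3 in 11, and above 3 in 3. Just inside the limit were Chpf2 (1.4009), Mboat7 (1.4011), Cspp1 (1.4022), and P2rx7 (1.4022). Just outside it were Gpnmb (1.3995), Eea1 (1.3970), Mdga1 (1.3961), and Gas2l1 (1.3960). Mboat7, for example, had 318, 293, and 284 normalized counts under LNA Control against 415, 388, and 451 under LNA Malat1, and Gpnmb was at 154, 113, and 126 and at 191, 176, and 183. Genes on either side of the limit had nearly the same ratio. Here and below, the first 3 values of a gene are LNA Control replicates 1, 2, and 3, and the next 3 are LNA Malat1 replicates 1, 2, and 3.

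**Figure D1:**
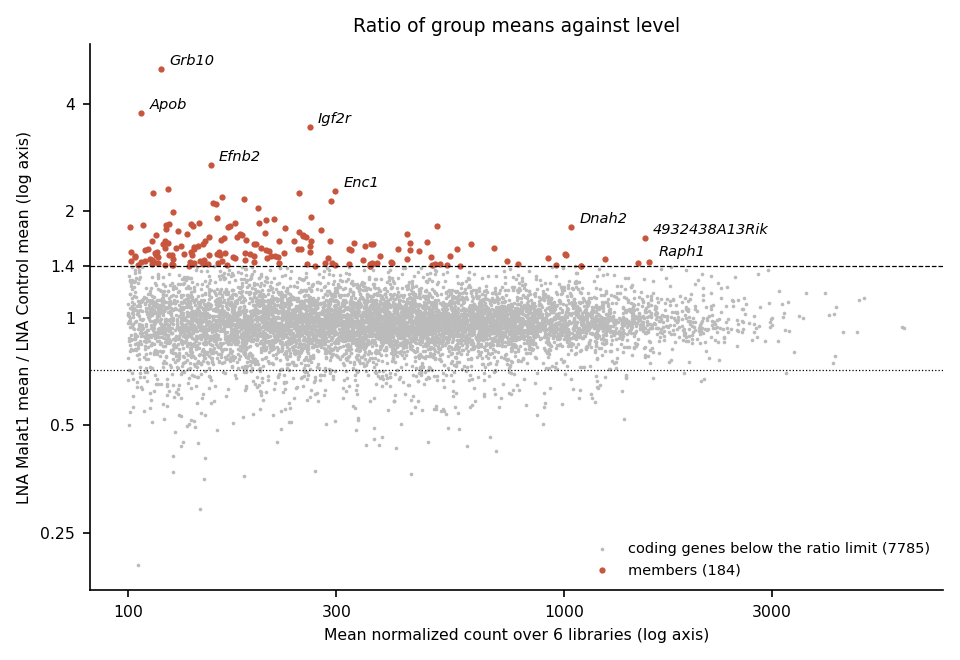
Ratio of the LNA Malat1 mean to the LNA Control mean (y axis, log scale) against the mean normalized count over the 6 libraries (x axis, log scale) for the 7969 coding genes within the limits, with the 184 members in red. The dashed line is the ratio limit of 1.4 and the dotted line its mirror. Of the members, 99 have a mean between 100 and 200 and 72 have a ratio between 1.4 and 1.5. Grb10 stands highest with a ratio of 5.00.

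Every LNA Malat1 library exceeded every LNA Control library in 181 of the 184 members, a pattern found in 15.4% of the 7969 genes. In limma's test across all 15650 genes with a mean of at least 5, on log2(normalized count + 1), 112 of the 184 members were called higher, which required an adjusted p no greater than 0.05 together with a change of 1.5-fold or more. Among all genes tested, 8.00% were called higher and 2.92% lower (1252 and 457 genes). The balance depended on the setting, with 317 called higher but 349 lower when testing was limited to the 10490 genes averaging 50 or more, and 774 and 695 after quantile normalization. Without the minimum on the fold change, all 184 members passed the adjusted p. These counts follow from how the members were chosen and carry no evidence of their own. The exceptions to the separation of the groups were Cep290, Vmn1r211, and Klhl28, in which LNA Control replicate 3 reached into the range of LNA Malat1.

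The 3 members with the largest ratio were Grb10, Apob, and Igf2r. Grb10 is an adaptor protein that binds activated insulin and insulin-like growth factor receptors and restrains their signal. Its gene spans positions 11930508 to 12038683 of chromosome 11 in mm10, on the minus strand. Grb10 had 45, 40, and 34 normalized counts under LNA Control against 211, 189, and 195 under LNA Malat1, a ratio of 5.00 (log2 fold change 2.30, SE 0.12). Every LNA Malat1 library was at least 4.20 times the highest LNA Control library.

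Igf2r, the receptor that carries insulin-like growth factor II and mannose-6-phosphate-tagged enzymes to the lysosome, lies on the minus strand of chromosome 17 (12682406 to 12769664). Igf2r read 114, 115, and 123 under LNA Control against 413, 402, and 397 under LNA Malat1, a ratio of 3.44 (log2 fold change 1.78, SE 0.07). Replicates varied little in either group, by at most 1.08 times.

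Apob encodes apolipoprotein B, the structural protein of chylomicrons and very low density lipoprotein, on the plus strand of chromosome 12 (7977648 to 8016835). Apob gave 28, 33, and 74 under LNA Control against 166, 164, and 177 under LNA Malat1, a ratio of 3.76 (log2 fold change 2.02, SE 0.26). LNA Control replicate 3 alone was more than 2.2 times either other control library. Without that library the ratio was 5.54, and without LNA Control replicate 1 it was 3.16.

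The promoter sequences of these 3 genes are shown because they head the set and because the windows could be searched for shared motifs. They are the 250 bases before an annotated RefSeq start (GRCm38.p6, read 5′ to 3′ on the gene's strand), with the motifs searched for below in capitals. The Grb10 window is at chr11:12037421-12037670 on the minus strand, 1263 bases from the start in the authors' table, the Apob window at chr12:7977427-7977676 on the plus strand, and the Igf2r window at chr17:12769707-12769956 on the minus strand.
Grb10: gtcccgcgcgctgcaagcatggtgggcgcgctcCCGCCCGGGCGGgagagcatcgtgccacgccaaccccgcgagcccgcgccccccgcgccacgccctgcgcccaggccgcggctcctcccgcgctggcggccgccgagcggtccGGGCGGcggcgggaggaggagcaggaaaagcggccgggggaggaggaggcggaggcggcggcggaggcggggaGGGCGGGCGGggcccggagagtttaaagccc
Apob: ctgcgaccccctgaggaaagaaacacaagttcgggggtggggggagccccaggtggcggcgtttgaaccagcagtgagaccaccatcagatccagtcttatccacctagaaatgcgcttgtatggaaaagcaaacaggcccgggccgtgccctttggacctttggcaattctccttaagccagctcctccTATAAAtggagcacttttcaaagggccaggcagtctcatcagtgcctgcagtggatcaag
Igf2r: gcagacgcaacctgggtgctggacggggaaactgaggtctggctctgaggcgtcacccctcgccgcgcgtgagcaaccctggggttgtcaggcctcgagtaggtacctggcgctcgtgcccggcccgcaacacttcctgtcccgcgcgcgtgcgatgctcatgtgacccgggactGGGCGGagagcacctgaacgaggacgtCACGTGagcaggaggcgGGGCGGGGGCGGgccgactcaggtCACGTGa
The Grb10 and Igf2r windows hold GGGCGG, the GC box, in several copies, and Igf2r also holds CACGTG, the E-box, at 2 places. The Apob window holds a single TATAAA, which begins 60 bases before the RefSeq start, and none of the other motifs. The RefSeq starts used for Apob and Igf2r lie 29 and 42 bases from those in the authors' table.

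A promoter window matched by symbol and strand for 152 of the 184 members and for 6494 of the 7969 genes. Both strands of 300 bases (250 before to 50 after the start) were searched, with 1 window per gene. GGGCGG was in 62.5% of member windows, 70.4% of the windows of all genes within the limits, and 35.7% of all 32851 windows of the table. CCGGAAG, an ETS factor motif, was in 11.8% of member windows, against 21.4% within the limits and 8.86% of all windows. TGANTCA, the AP-1 motif, was in 13 member windows (8.55%), against 3.93% within the limits and 7.81% of all windows. TATAAA was in 9.87% of member windows, against 5.93% and 13.6%. CCAAT was as frequent in members (39.5%) as within the limits (39.6%), and in 37.4% of all windows.

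The remaining motifs were counted in the same windows. CACGTG was in 7.24% of member windows, against 11.3% within the limits and 7.15% of all windows, and AAGATGG, the YY1 motif, in 4.61%, against 8.19% and 6.34%. GGAATG, the TEAD motif, was in 13.8%, against 11.1% and 14.7%. TGACGTCA, the cyclic AMP response element, was in 4.61%, against 3.56% and 1.79%, and AGATAA, a site of cardiac and blood zinc finger factors, in 3.29%, against 5.42% and 11.2%. The CArG box and the MEF2 box, sites of serum response factor and of MEF2, were each in 2 member windows (1.32%), against 1.37% and 1.31% within the limits and 1.63% and 3.19% of all windows. These are matches of letters only, and 13 windows or fewer stand behind several of the shares.

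By role, ligands and receptors of cell-cell contact are given next. Efnb2, ephrin-B2, a membrane-bound ligand of Eph receptors known for its part in arterial identity, was at 77, 89, and 85 and at 244, 216, and 215, a ratio of 2.69 (log2 fold change 1.42, SE 0.09). Among the Eph receptor tyrosine kinases, Epha2 was at 220, 179, and 196 and at 330, 331, and 319. Ephb3 was at 81, 79, and 80 and at 118, 127, and 124. The groups were apart in all 3 genes, with ratios of 1.65 for Epha2 and 1.54 for Ephb3. Celsr2, the single member on the list of cadherins and planar polarity (26 tested, 2 called higher, 2 lower), is an atypical cadherin at 188, 131, and 128 and at 316, 253, and 281, with LNA Control replicate 1 the highest of its group. Unc5b, a netrin receptor, was at 231, 207, and 200 and at 320, 285, and 300.

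Of the 39 genes on the list of growth factor receptors and their ligands, 30 were tested, 7 were called higher, and 2 lower. Of its 19 genes within the limits, 5 were members, namely Efnb2, Epha2, Ephb3, Hbegf, and Igf2r. The shares to set beside this and the other lists are those over all genes tested, 8.00% called higher and 2.92% lower. Of the 7969 coding genes within the limits, 184 were members. Hbegf, a ligand of the EGF receptor, was at 111, 103, and 98 and at 157, 137, and 149, a ratio of 1.42 that is below the fold minimum of the test. Errfi1, a feedback inhibitor of the EGF receptor, was also a member, at 131, 139, and 149 and at 202, 192, and 197.

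Secreted ligands and matrix proteins made up 15 members with a median ratio of 1.65. Matn4, matrilin-4, an adaptor of matrix filaments, was at 100, 59, and 64 and at 190, 170, and 155 (ratio 2.31). The cytokines Lif and Csf1, which drive stem cell self-renewal and macrophage growth, respectively, were among them. Lif was at 92, 94, and 96 and at 159, 181, and 156, and Csf1 at 393, 368, and 342 and at 614, 583, and 602. The ratio of Lif was 1.76, and its LNA Control values were closer together than the counting error at this level.

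Of the list for TGF-beta, BMP, and Wnt signalling, 46 genes were tested, 3 were called higher, and 2 lower. The 3 called higher are its 3 members, Id2, Tgfb3, and Wnt9a, of 38 genes of the list within the limits. Tgfb3, a TGF-beta ligand, was at 93, 74, and 90 and at 138, 159, and 127, and Wnt9a, a Wnt ligand, at 90, 80, and 88 and at 162, 157, and 153. Id2, an inhibitor of basic helix-loop-helix factors and a known BMP target, was at 129, 94, and 107 and at 157, 173, and 175. The call of Id2 was lost without LNA Control replicate 2 (log2 fold change 0.51). Inhba, the activin A subunit, was on no list and was one of the members at a higher level, at 610, 632, and 700 and at 963, 925, and 868, with a ratio of 1.42.

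The extracellular matrix list had 48 genes tested, 11 called higher, and none lower. Of its 29 genes within the limits, 3 were members, and Ccn1 and Ccn4 are described here. Ccn1, a matricellular protein and a target of YAP and serum response, was at 193, 192, and 218 and at 327, 310, and 325. Ccn4 was at 169, 144, and 174 and at 271, 266, and 220. All LNA Malat1 libraries exceeded all LNA Control libraries in both genes. The list of integrins and matrix receptors held no member among its 15 genes within the limits, although 6 of its 24 genes tested were called higher. Over all genes tested, 8.00% were called higher and 2.92% lower.

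**Figure D2:**
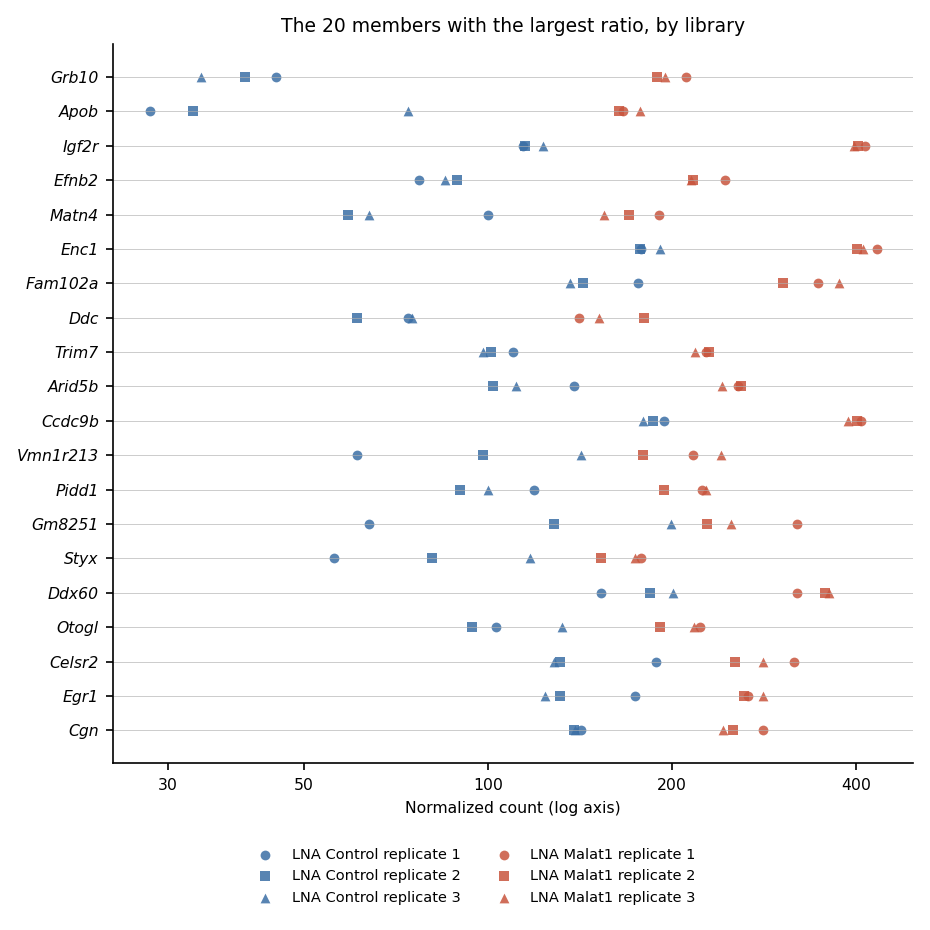
Normalized counts (x axis, log scale) of the 20 members with the largest ratio in each of the 6 libraries, with LNA Control in blue and LNA Malat1 in red and a marker shape for each replicate number. In all 20 genes the red points lie to the right of the blue ones. The blue points of Apob, Vmn1r213, Gm8251, and Styx spread widely, with LNA Control replicate 3 the highest of them.

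Receptors, adhesion, and other membrane proteins formed the largest group, with 23 members and a median ratio of 1.56. Besides those above it held Vmn1r213 and Vmn1r211, receptors of the vomeronasal organ, which senses pheromones. Vmn1r213 was at 61, 98, and 142 and at 216, 179, and 240, and Vmn1r211 at 63, 99, and 179 and at 190, 169, and 191. In both genes LNA Control replicate 3 was more than 2.3 times replicate 1, and in Vmn1r211 the groups overlapped. Vomeronasal receptors belong to a large family with close copies. Since the authors left out reads that aligned to several regions, the counts of such genes are uncertain. Near Vmn1r213, 3 further genes of the family were called higher by limma, namely Vmn1r210 (41, 60, and 81 and 124, 118, and 109), Vmn1r214 (3, 4, and 4 and 15, 7, and 32), and Vmn1r218 (listed at 0 in each control library and at 17, 12, and 18). Vmn1r212 was not called (33, 43, and 55 and 53, 46, and 57). P2rx7, an ATP-gated channel, was at 312, 280, and 303 and at 419, 409, and 427.

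Cytoskeletal and sarcomere genes were represented by 14 members. Enc1, an actin-binding adaptor of a ubiquitin ligase, was at 178, 177, and 191 and at 432, 401, and 410 (ratio 2.28, log2 fold change 1.18, SE 0.06). Cgn, cingulin of tight junctions, was at 142, 138, and 139 and at 282, 251, and 242. Raph1, lamellipodin, an actin regulator of the leading edge, had the highest mean of all members at 1343, 1182, and 1323 and at 1851, 1754, and 1914, with a ratio of 1.43. The LNA Control replicates of the 3 genes spanned at most 1.14 times.

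The list of sarcomere and Z-disc genes had 41 genes tested, 11 called higher, and none lower. Of its 20 genes within the limits, 3 were members, namely Ldb3, Myom1, and Neb. Over all genes tested, 8.00% were called higher and 2.92% lower, and 184 of the 7969 coding genes within the limits were members. Ldb3, the Z-disc protein Cypher, was at 157, 113, and 126 and at 201, 193, and 208 (ratio 1.52). Myom1, a crosslinker of the M-band, was at 119, 136, and 164 and at 205, 193, and 223. Neb, nebulin, which runs along thin filaments, was at 732, 870, and 1128 and at 1289, 1335, and 1208, so that its LNA Control libraries spread by 1.54 times, more than its ratio of 1.404. Ttn and Actn2, which the selection left out by name, had ratios of 1.57 and 1.63.

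Signal modulators and feedback inhibitors numbered 16, with Grb10 first. Pidd1, a death-domain protein that activates caspase-2, was at 119, 90, and 100 and at 224, 194, and 227 (ratio 2.09). Btg2, an antiproliferative protein and p53 target, was at 139, 157, and 155 and at 284, 256, and 244. Trp53inp1, another p53 target, was at 722, 748, and 758 and at 1096, 1140, and 1057, a ratio of 1.48 with LNA Control replicates that spanned 1.05 times. On the p53 list, Btg2 and Trp53inp1 were the 2 members among 17 genes tested, of which Btg2 was the only gene called higher and none was called lower. Styx, a catalytically inactive phosphatase, was at 56, 81, and 117 and at 178, 153, and 174.

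Transcription and chromatin regulators gave 18 members with a median ratio of 1.5002. Arid5b, a DNA-binding partner of a histone demethylase, was at 138, 102, and 111 and at 256, 259, and 241 (ratio 2.15). Egr1, an immediate early transcription factor, was at 174, 131, and 124 and at 266, 262, and 281 (ratio 1.89). It was the single member on the list of immediate early genes, of which 23 were tested, 4 were called higher, and none lower. Among members of high level, Phf20l1, a reader of methylated lysines, was at 701, 781, and 914 and at 1200, 1247, and 1181, and Ankrd12, a nuclear receptor corepressor partner, at 592, 820, and 1012 and at 1281, 1137, and 1227. Tead3, a partner of YAP, was at 173, 175, and 182 and at 266, 252, and 271.

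The group of lipoprotein, lipid, and steroid genes held 10 members. Apob was joined by Mttp, the transfer protein that loads lipid onto apolipoprotein B, at 130, 131, and 128 and at 194, 210, and 182 (ratio 1.51). Apobr, a receptor for apolipoprotein B, was at 173, 209, and 192 and at 323, 284, and 292 (ratio 1.57). Lrp8, a lipoprotein receptor grouped here with the membrane proteins, was at 135, 118, and 124 and at 180, 171, and 185 (ratio 1.42). These 4 genes were set side by side after their values were seen. Hsd3b1, an enzyme of steroid hormone synthesis, was at 142, 129, and 149 and at 226, 250, and 221. No member stood on the list of lipid synthesis and uptake, which had 34 genes within the limits, 44 tested, 4 called higher, and 1 lower.

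Among the 15 enzymes of small-molecule metabolism, Ddc, which makes dopamine and serotonin from their amino acid precursors, had the largest ratio. Ddc was at 74, 61, and 75 and at 141, 180, and 152 (ratio 2.25). Abat, which degrades GABA, was at 84, 102, and 87 and at 131, 138, and 131. Aasdh was at 196, 194, and 194 and at 307, 298, and 306, 1 of the tightest sets of replicates among the members. The median ratio of the group was 1.47.

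Centrosome and cilium genes gave 9 members with a median ratio of 1.65. Dnah2, a heavy chain of axonemal dynein, was at 772, 712, and 733 and at 1401, 1229, and 1369 (ratio 1.80). Tctn1 and Ift122, proteins of the ciliary transition zone and of intraflagellar transport, were at 119, 113, and 130 against 226, 204, and 223 and at 225, 218, and 215 against 358, 377, and 349. Cep290, also of the transition zone, was at 136, 265, and 423 and at 503, 418, and 414. Its ratio of 1.62 became 1.29 when LNA Control replicate 1 was left out and 2.22 when replicate 3 was. Cspp1, a centrosome and spindle pole protein, was at 423, 459, and 560 and at 668, 695, and 659.

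DNA repair contributed 6 members with a median ratio of 1.505. Brca2, of homologous recombination, was at 854, 985, and 1179 and at 1471, 1432, and 1523. Rev3l, the catalytic subunit of DNA polymerase zeta, was at 854, 1245, and 1549 and at 1674, 1786, and 1752. In both the lowest control library was replicate 1 and the highest replicate 3. Rev3l spread by 1.81 times across LNA Control, against a ratio of 1.43.

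RNA-binding and decay genes gave 6 members. Ago3, an Argonaute protein of the microRNA pathway, was at 867, 885, and 972 and at 1273, 1250, and 1303 (ratio 1.405). Nanos1, a translational repressor, was at 168, 166, and 158 and at 282, 313, and 285 (ratio 1.79). Ro60, which binds Y RNAs, was at 318, 502, and 586 and at 718, 798, and 749, and Nol8, a nucleolar protein, at 381, 563, and 668 and at 848, 875, and 815. The LNA Control libraries of Ro60 and Nol8 spread by 1.84 and 1.75 times, against ratios of 1.61 and 1.57.

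Ubiquitin ligases and their adaptors gave 5 members, led by Trim7 at 110, 101, and 98 and at 227, 230, and 218 (ratio 2.18). Klhl28 was at 113, 167, and 261 and at 259, 270, and 296, with overlap between the groups. In the interferon-linked group of 4 genes, Ddx60, a helicase of antiviral sensing, was at 153, 184, and 201 and at 320, 355, and 361 (ratio 1.93). Psmb9, a subunit of the immunoproteasome, was at 93, 96, and 92 and at 130, 156, and 119. The list of interferon and nucleic acid sensing genes held no member among 22 within the limits, and none of its 25 genes tested was called in either direction by limma. In the group of vesicle and membrane traffic, with 12 members, Golgb1, the Golgi tether giantin, was at 283, 374, and 433 and at 692, 645, and 637 (ratio 1.81). The large protein 4932438A13Rik, counted in the same group, was at 768, 1103, and 1555 and at 1882, 1940, and 1933.

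The remaining 31 members were not grouped. Fam102a was at 176, 143, and 136 and at 346, 304, and 375 (ratio 2.25), and Ccdc9b at 194, 186, and 179 and at 407, 401, and 387 (ratio 2.14). Gm8251 was at 64, 128, and 199 and at 320, 228, and 250, and Ttc14 at 666, 780, and 933 and at 1118, 1101, and 1133. The ratio of Gm8251 was 2.04 with all libraries and 1.63 without LNA Control replicate 1.

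**Figure D3:**
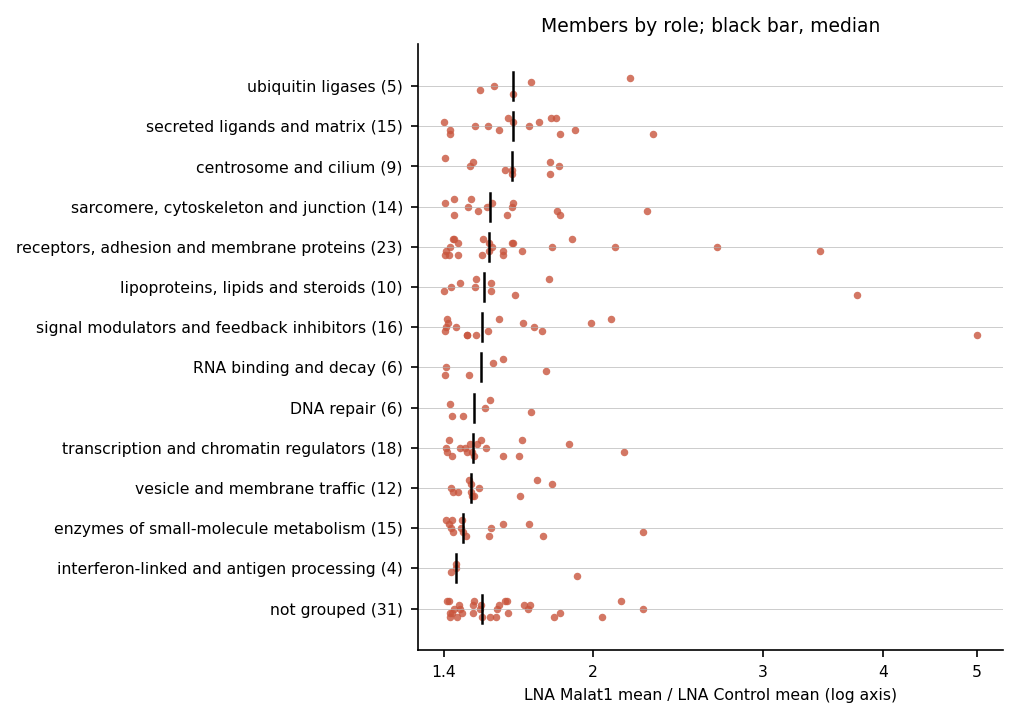
Ratio of the LNA Malat1 mean to the LNA Control mean (x axis, log scale) for each of the 184 members (points), arranged by role, with the number of members in parentheses and the median as a black bar. Medians lie between 1.44 and 1.65 in the 13 roles, and Grb10, Apob, and Igf2r are the points furthest right, in 3 different roles.

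Over all 19 lists, 442 genes were within the limits and 18 were members. The other 12 lists held no member. These included 43 chromatin and transcription coregulators within the limits (none of 46 tested called in either direction by limma), 39 genes of proliferation and mitosis (1 of 41 tested called higher and 1 lower), 27 of lysosome and autophagy (none called higher, 1 lower), 24 of ER stress and heat shock (none called higher, 1 lower), and 13 of oxidative stress (none of 15 tested called by limma). Of the actin and focal adhesion list, 1 of 44 tested was called higher and 2 lower, of the Notch list, 2 of 21 and 1, and of the ion channel list, 2 of 31 and 4. The list of hypoxia and glycolysis had 20 genes within the limits, none a member and 5 with a ratio of at most 1/1.4, and 6 of its 23 genes tested were called lower and none higher. Without the fold minimum, an adjusted p of at most 0.05 was met by 2231 of all genes tested in the higher direction and by 2195 in the lower.

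The GO terms given in the authors' table were counted by word. No term was listed for 46 members (25%), against 13.1% of all genes within the limits, and these genes stay in the denominators. RNA binding was listed for 8 members (4.35%, against 13.04% within the limits), ubiquitin for 7 (3.804%, against 9.70%), chromatin for 5 (2.72%, against 8.17%), mitochondrion for 14 (7.61%, against 14.4%), and cell cycle for 11 (5.98%, against 11.3%). Higher shares in members were found for angiogenesis, with 7 genes (Ccn1, Efnb2, Epha2, Ephb3, Hbegf, Lif, and Unc5b, 3.804%, against 2.01%), extracellular space, with 9 (4.89%, against 3.34%), sarcomere, with 4 (2.17%, against 0.82%), and lipid metabolic process, with 15 (8.15%, against 6.31%). Shares for plasma membrane (17.9% and 16.8%), cell adhesion (8.70% and 7.65%), and immune (9.24% and 9.25%) were close to each other. These words were not tested for enrichment.

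The members were measured at lower levels than the genes they were drawn from. Their median mean was 188 normalized counts, against 380 for all 7969 genes, and 99 of the 184 had a mean between 100 and 200. In that range 5.61% of the 1766 genes were members, against 1.94% of 3253 genes between 200 and 500, 0.65% of 2010 between 500 and 1000, and 0.96% of 940 above. The genes with a ratio of at most 1/1.4 fell off less steeply, from 6.12% in the lowest range to 2.55% in the highest. Counting error is larger at low counts, and its part in this distribution was not tested. The level is a mean over all 6 libraries, so it includes the LNA Malat1 libraries, in which the members are high by the rule. Some members reached 100 only through them, such as Grb10 and Apob, with LNA Control means of 39.7 and 45. The part of this in the distribution was not tested either.

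Per kilobase of exon, the median level of the members was 33.7 normalized counts, against 80.5 for all genes within the limits. On this scale Akip1 (160), Trp53inp1 (142), Sh3bgr (141), and Ccn1 (129) were the highest, and Apob (7.68) and Styx (7.83) were the lowest. The members were also longer than all genes, with a median exonic length of 6117 bases against 5012. The same held for genes with a ratio of at most 1/1.4 (5886 bases). The median genomic span of the members, 28219 bases, was close to that of all genes (27391). Genes with a ratio of at most 1/1.4 had a median span of 59164 bases. Spans of 100 kb or more were found in 13.04% of members, 11.9% of all genes, and 32.2% of those with the low ratio. Median exonic GC content was 49.5% in members and 48.6% in all, but the members' range was wider, from 39.2% at the 10th percentile to 57.4% at the 90th, against 41.1% to 56.8%. Across the 184 members, which were cut off at a ratio of 1.4, Spearman's rho of the ratio was 0.06 with exonic GC content and -0.05 with exonic length, and across all 7969 genes it was -0.10 and 0.11. These are descriptions across genes, which share the same 6 libraries.

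The LNA Control libraries, whose mean entered the ratio, differed more from each other in the members, which is given as a description. LNA Control replicate 3 was the highest of the 3 control libraries in 82 of the 184 members (44.6%), against 23.4% of all genes within the limits and 25.6% of those with a ratio of at most 1/1.4. Replicate 1 was the lowest in 77 members (41.8%), against 29.5% and 34.2%. The highest control library was a median 1.19 times the lowest in members and 1.11 times in all genes. Counting error is larger at the lower levels of the members, and its part in this spread was not tested. The LNA Malat1 libraries were tighter, with a median of 1.12 times in members and 1.08 in all. In 126 of 184 members the spread in LNA Malat1 was no wider than in LNA Control. The spread in LNA Malat1 was wider in the other 58 members and in 2818 of all 7969 genes within the limits, a similar share.

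In 21 members LNA Control replicate 3 was at least 1.5 times replicate 1 (11.4%, against 97 of 7969 genes, 1.22%, and 1 of the 348 genes with a low ratio). Replicate 3 was also the highest control library in 37.4% of the other 163 members. The widest spreads were those of Cep290 (3.1103 times), Gm8251 (3.1094), Vmn1r211 (2.84), Apob (2.64), and Vmn1r213 (2.33). In others of the 21, such as Styx, 4932438A13Rik, and Ankrd12, the spread across LNA Control was also larger than the ratio. Relative to the control mean, the medians of these 21 members were 0.67, 0.99, and 1.29 in the 3 LNA Control libraries, with LNA Malat1 at 1.67, 1.63, and 1.62. For the other 163 the medians were 1.01, 0.98, and 1.00, with LNA Malat1 at 1.54, 1.53, and 1.55. Against the highest control library in place of the control mean, the LNA Malat1 mean was at least 1.4 times higher in 95 of the 184 members, in 5 of the 21 and in 90 of the 163. The 21 were chosen on a high control replicate 3, which lowers this measure, so their smaller share follows from the choice.

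**Figure D4:**
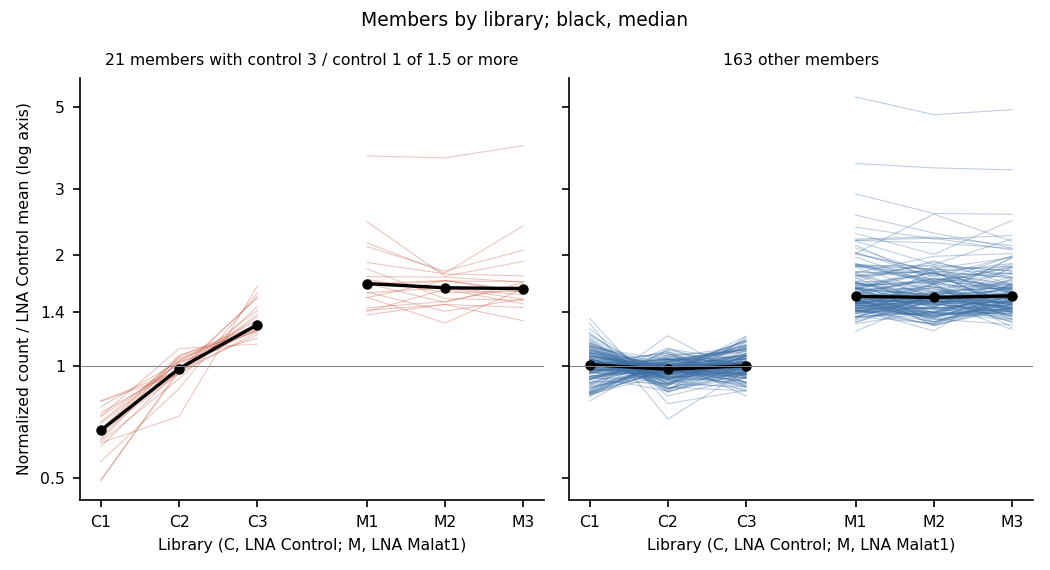
Normalized counts divided by the LNA Control mean (y axis, log scale) in the 3 LNA Control (C1 to C3) and 3 LNA Malat1 (M1 to M3) libraries for the 21 members in which LNA Control replicate 3 was at least 1.5 times replicate 1 (left) and the other 163 (right). Lines join the values of a gene and have no order in time, and black points are medians. On the left the control medians are 0.67, 0.99, and 1.29, as the choice of these genes requires, and on the right they are near 1, while both panels have LNA Malat1 medians between 1.53 and 1.67.

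The 21 members were low in GC and long. Their median exonic GC content was 39.4%, against 50.1% in the other 163, and their median exonic length 9541 bases, against 6021. The 2 with the highest GC content were Golgb1 (50.6%) and Neb (46.4%). Across the 184 members, the ratio of LNA Control replicate 3 to replicate 1 was lower with higher GC content (Spearman rho -0.69), and the same held across the 7969 genes (rho -0.46). When the 7969 genes were divided into 4 equal bins of exonic GC content, the lowest bin (34.3% to 44.1%) held 55 members, of which 19 were among the 21. In the lowest bin, the median ratio of LNA Control replicate 3 to replicate 1 was 1.32 in members and 1.05 in all genes. The other bins held 32, 46, and 51 members, with 1, 1, and 0 of the 21. Against the highest control library, 16 of the 55 members in the lowest bin stood at 1.4 or more, and 22 of 32, 28 of 46, and 29 of 51 in the others. The lowest bin includes the 19 members chosen on a high control replicate 3, which lowers this measure. Replicate 3 also had the most recovered reads of the control libraries (5592464, against 4512253 and 4532043). The part of GC content and depth in the level of these members was not tested.

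**Figure D5:**
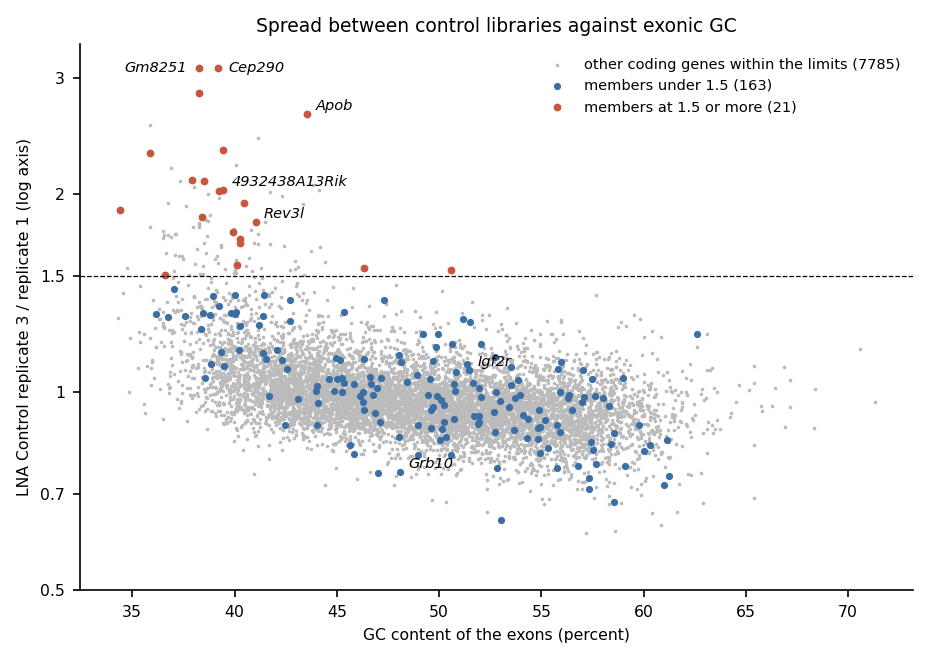
Ratio of LNA Control replicate 3 to replicate 1 (y axis, log scale) against exonic GC content (x axis, percent) for the 184 members and the other coding genes within the limits (grey). The 21 members at 1.5 or more (red) lie mostly under 44% GC, and Golgb1 and Neb are the exceptions. The remaining 163 members are in blue, and Grb10 and Igf2r lie at 0.76 and 1.08.

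Leaving out 1 library at a time, 119 of the 184 members had a ratio of at least 1.4 each time. Without LNA Control replicate 1, 147 of the 184 remained at 1.4 or more, without replicate 2, 161, and without replicate 3, 171. Without LNA Malat1 replicate 1, 2, or 3, 169, 173, and 169 remained. Members with the least spread in LNA Control were Sgsm2 (122 in each control library, and 206, 166, and 178 in LNA Malat1), Inka2 (199, 200, and 200, and 374, 356, and 330), and Nrip3 (100, 101, and 100, and 181, 173, and 164). Inka2, an inhibitor of the kinase Pak4, had a log2 fold change of 0.82 (SE 0.06).

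The members lay on 20 chromosomes, with the largest share of genes within the limits on chromosome 3 (17 of 397, 4.28%) and the smallest on chromosome 15 (3 of 302, 0.99%). Within 200000 bases of each other lay 11 pairs, among them Ddc and Grb10, 32364 bases apart on the minus strand of chromosome 11, and Vmn1r211 and Vmn1r213, 150095 bases apart on chromosome 13. Around Grb10, the coding genes on either side of this pair had ratios near 1. Fignl1 was at 556, 565, and 542 and at 526, 563, and 556, and Cobl at 570, 518, and 531 and at 603, 501, and 601. Around Efnb2, 3 unclassified transcripts that overlap its span were called higher by limma, all at low levels. Gm45074 was at 2, 2, and 2 and at 6, 9, and 10, and Gm45073 at 5, 7, and 12 and at 16, 21, and 21. E230020D15Rik was at 14, 14, and 10 and at 43, 27, and 31. The sources used here do not say whether counting used the strand, so reads of these transcripts and of Efnb2 may not be fully separated. The coding gene Arglu1, 3833 bases away, had a ratio of 0.96.

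Igf2r overlaps Airn, an antisense RNA that starts within it. Airn was at 477, 491, and 515 and at 631, 461, and 625, with overlapping groups and a ratio of 1.16. The library kit keeps the strand, but the sources used here do not say whether the counting did, so reads of Igf2r and Airn may not be fully separated. Within 300000 bases of Igf2r, the noncoding Gm49959, 15218 bases away, was called higher, at 0, 0, and 4 and at 9, 8, and 15. Acat2, 173226 bases from Igf2r, was called lower, at 241, 263, and 245 and at 146, 173, and 138. Of the 184 members, 73 (39.7%) overlapped another gene of the table, against 43.4% of all genes within the limits, and reads shared between overlapping genes were left out by the authors.

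The limits on names took out 19 further genes with a ratio of at least 1.4. The largest of these ratios were those of Slc26a7 (1.96), Zfp37 (1.82), and Slc43a2 (1.78), an anion exchanger, a zinc finger protein, and an amino acid transporter. Zfp37 was at 136, 224, and 244 and at 368, 373, and 357. Without the limit on span, 186 genes would have met the rule.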

How the data were processed

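RNA of HL-1 cells was sequenced in 6 libraries, 3 per group. Per the methods and the submitters' processing notes, trimming used Trimmomatic 0.39, alignment to mm10 STAR 2.7.7a, and counting on exons featureCounts 1.6.5, which dropped any read that fell on more than 1 gene or aligned to more than 1 place. Differential expression was then called with DESeq2 1.30.0. The authors deposited a score, a gene's count after scaling by a library-wide factor and rounding, and whether counting used the strand is not given in the sources used here. Count tests were therefore not used. The factor was recovered from the gaps rounding leaves, and gives approximate reads.

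Members were found by the stated limits, with the mean taken over 6 libraries. Genes with a mean of at least 5 were fitted by limma 3.58.1 in R 4.3.3 after log2(normalized count + 1), using a trended prior variance and two-sided tests, with Benjamini-Hochberg adjustment over all 15650 genes. Calls required an adjusted p no greater than 0.05 and a change of 1.5-fold or more. Fold changes on this scale understate those of low genes. The fit was tested on simulated data. Exonic length and GC content are those of the union of exons in GENCODE M21, in which 21224 of 21269 identifiers were found. Promoters are those of RefSeq (GRCm38.p6).

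Genes named singly were the 15 members with the largest ratio, the 10 with the highest mean, members on the lists, the 4 nearest each side of the limit, the 5 with the widest LNA Control spread, Malat1, and further members as examples of roles. A member on the lists is not reported here. The members and the lists were chosen with earlier results of these data known, and the roles were assigned after the values were seen. Nothing says whether replicates came from separate cultures, so standard errors measure the spread between these libraries. Columns of per-sample values outside these 6 numbered 0. The pairing and alternatives are given below.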

Additional observations from a re-analysis of the deposited data

How the results depend on the processing

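The number of genes meeting the rule followed its limits. It was 112 at a ratio of at least 1.5, 305 at 1.3, 85 at a mean of at least 200, and 315 at a mean of at least 50. With the highest control library in place of the control mean, an alternative chosen after seeing the data, it was 95. Under other scalings it was 167 (median of ratios), 214 (equal totals), and 218 (quantile), sharing 167, 184, and 183 with the 184, and with geometric means 194, sharing 182. Leaving out 1 library gave 174 to 233, the highest without LNA Control replicate 3.

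Genes called higher numbered 1252, 2231 without a fold minimum, 774 after quantile normalization, 317 at a mean of at least 50 (of 10490 tested), 831 with LNA Malat1 replicates 1 and 3 as 1 sample, and 810 to 1582 without 1 library, the lowest without LNA Malat1 replicate 1 (810) or 3 (812). Members called higher numbered 112, 184 without a fold minimum, 105 to 130 under the other settings with all libraries, and 99 to 124 without 1 library. Under a replicate block, 1297 genes and 112 members were called higher. Deviations of same-numbered libraries correlated by 0.09, 0.18, and 0.08 across 10490 genes, each the best match of its library, a hint from the data and not from the design, so the numbers were not treated as pairs.

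LNA Control replicate 3 was the highest control library in 73 to 94 members under the other scalings (39.7% to 51.1%, against 19.98% to 30.9% of all genes within the limits). On the longest transcript, median exonic length was 4729 bases in members and 3690 in all, and median GC content 49.6% and 49.1%. Of 46 members followed singly, all 46 kept their direction under 15 settings and 29 kept their side of the threshold. Leaving out a single library took the call from 4932438A13Rik, Ankrd12, Ccn4, Cep290, Gm8251, Id2, Ldb3, Phf20l1, and Vmn1r211, and gave one to Brca2, Cspp1, Myom1, Neb, Rev3l, Trp53inp1, and Ttc14. The recovered depth gives genes near the level limit a counting error of about 10%, so ratios near 1.4 there cannot be told from smaller ones at this depth.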

Other observations

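Grb10, Igf2r, and Ddc, the members ranked 1, 3, and 8 by ratio, are known as imprinted genes in the mouse, that is, genes expressed mainly from the copy of 1 parent in some tissues. A list of 60 imprinted genes was examined, chosen after these values were seen and given no test. Of these, 36 were in the table and 30 were tested, of which 6 were called higher and 3 lower by limma. Among all genes tested, 8.00% were called higher and 2.92% lower. Of the 20 with a mean of at least 100, Grb10, Igf2r, and Ddc were members, against 184 of the 7969 coding genes within the limits. Grb10 and Ddc are neighbours, 32364 bases apart.

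Besides the 3 members, the genes called higher were at low levels. Tnfrsf23, a decoy death receptor, had 25, 18, and 20 normalized counts under LNA Control against 40, 46, and 48 under LNA Malat1. Plagl1, a zinc finger regulator of growth, was at 5, 3, and 6 and at 16, 14, and 19, and Asb4 at 0, 5, and 4 and at 8, 17, and 10. Those called lower were Cdkn1c, an inhibitor of cyclin-dependent kinases, at 192, 257, and 233 and at 138, 151, and 144, Trappc9 at 272, 241, and 253 and at 163, 155, and 162, and Peg13, which lies within Trappc9, at 100, 93, and 116 and at 59, 68, and 69. The growth-restraining noncoding RNA H19 was at 335, 367, and 358 and at 250, 228, and 230, a ratio of 0.67 that did not pass the fold minimum. Imprinted genes lay on both sides, and most of those measured, such as Gnas (1297, 1232, and 1084 and 1105, 1114, and 1054) and Blcap (257, 258, and 235 and 274, 232, and 247), were not called.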
